A study of Mus musculus with 6 samples.

Results

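The genes described here encode the matrix metalloproteases (MMPs), the ADAMs, the ADAMTS and ADAMTS-like proteins and the tissue inhibitors of metalloproteases (TIMPs). They were taken by name from the authors' gene table, as all genes whose symbol starts with Mmp, Adam or Adamts followed by a member number or letter code, together with Timp1 to Timp4. This gave 84 of the 51482 measurements in the table, of which 23 are Mmp, 33 Adam, 19 Adamts, 5 Adamtsl and 4 Timp. RNA had been sequenced from wild-type mouse embryonic fibroblasts immortalised with SV40, kept for 16 h either at 21% oxygen (normoxia) or at 0.5% oxygen (hypoxia), with 3 samples per condition that the series design calls biological replicates. Both groups are the same SV40-transformed culture model, and the labels do not say whether it is 1 clone. The table gives 1 FPKM (fragments per kilobase of transcript, made relative to library size) per gene and group, so no value here has an SD, and the depth of the libraries is unknown. Here "rose" and "fell" are used of hypoxia against normoxia, and only where Cuffdiff, the authors' program, gave a q below 0.05.

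Metalloproteases of these families hold a zinc ion at their active site and are made as inactive precursors. MMPs cut collagens and other matrix proteins, ADAMs are membrane proteins of which many release the outer part of growth factors and receptors from the cell surface, and ADAMTS enzymes are secreted and process proteoglycans, procollagens and other matrix proteins. ADAMTS-like proteins resemble the non-catalytic part of ADAMTS enzymes and have no protease domain, and TIMPs bind and block the active sites. Fibroblasts are a source of many of these in connective tissue, and low oxygen is known to alter how fibroblasts build and remodel matrix.

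Falls outnumbered rises among these genes. Of the 17 falls 8 were of Mmp genes. Of 12 tested Mmp genes 8 fell and 2 rose, beside 29.0% and 28.9% of all tested measurements. Most tested ADAMs were not called. Of the 84 measurements 21 are listed at 0 in both conditions, 44 were not tested by the authors (the 21 among them) and 40 were tested. Of the 40 tested, 17 fell, 5 rose and 18 were not called. The called share was 55.0% of the tested members against 57.9% of all 14575 tested measurements, so being called was no more common than in the table as a whole. By direction, 42.5% of tested members fell against 29.0% of all tested measurements, and 12.5% rose against 28.9%. A filter on the average of the 2 group values, at 0.5 FPKM or more, left 34 members, all of them tested, of which 15 fell, 5 rose and 14 were not called. The called share was then 58.8%, against 61.2% of the 13118 tested measurements past this filter, of which 30.3% fell and 30.9% rose. Falls of at least 2-fold were called for 7 of the 34 and a rise of at least 2-fold for 1, beside 9.35% and 9.02% of all tested measurements past the filter (9.87% and 9.03% of all tested measurements). The median log2 fold change of the 34, on the scale of log2(FPKM + 1), was -0.27, beside -0.00057 for all tested measurements past the filter. These shares are descriptions, and no test of the families against other genes was made.

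The 0.5 FPKM filter passed through members with close values. Just above it lay Mmp25 (mean of 0.527 FPKM, lower), Mmp13 (0.614 FPKM, higher) and Adamts6 (0.890 FPKM, not called). Just below it lay Adam19 (0.484 FPKM, lower), Adamtsl3 (0.439 FPKM, not called) and Adamtsl1 (0.396 FPKM, not called).

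**Figure D1:**
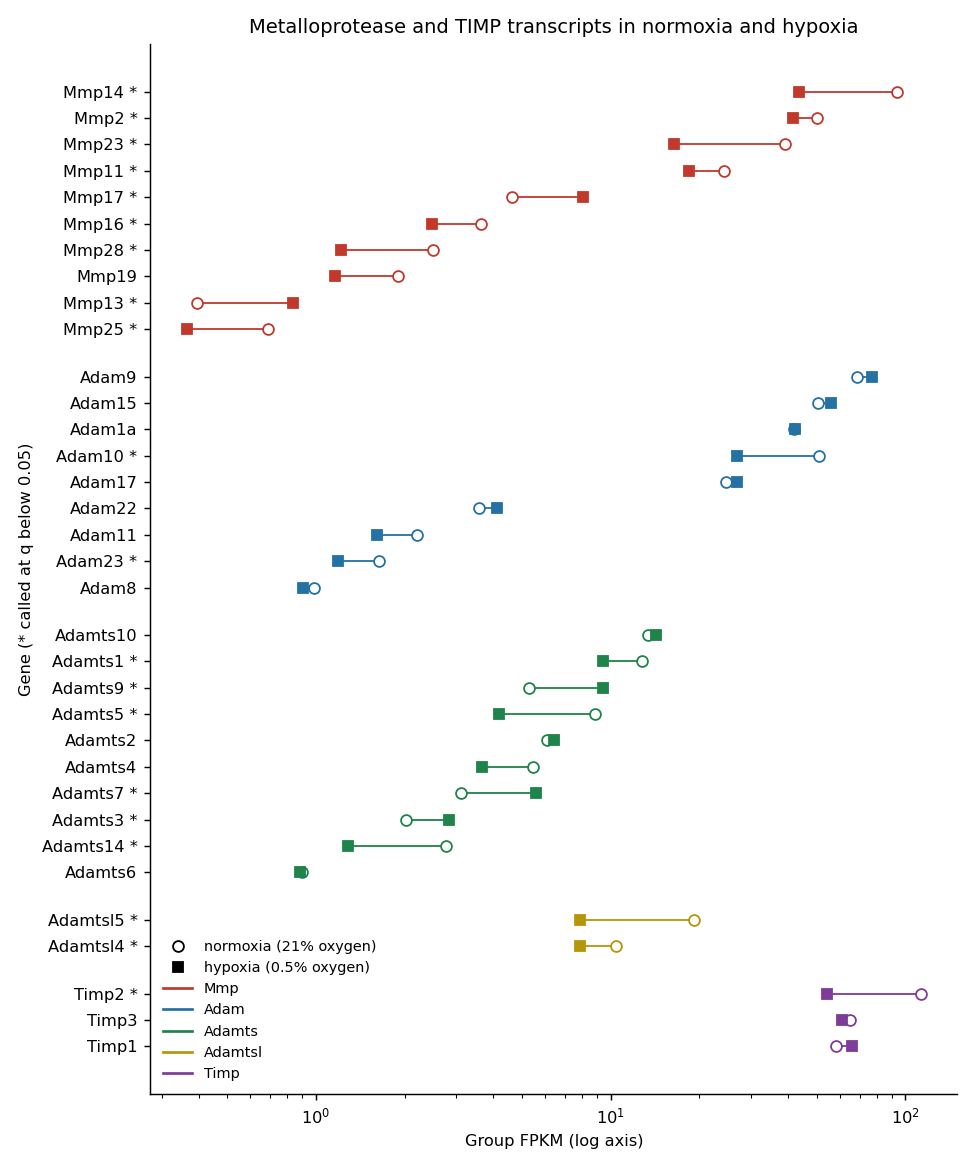
Group FPKM (log axis) of the 34 members with a mean of at least 0.5 FPKM in normoxia (open circles) and hypoxia (filled squares), by family (asterisk: q below 0.05). Mmp14 and Timp2 start highest, at 93.3 and 112.8 FPKM, and their hypoxia squares lie well to the left, while those of Mmp17, Mmp13, Adamts9, Adamts7 and Adamts3 lie to the right.

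The letters before the start sites of some called members, which fell or rose, are shown first. Sequences are from RefSeq's promoter windows on GRCm38.p6, which cover 250 bases before to 50 bases after a start site, and 53 of the 84 members had at least 1 window. The windows were searched on both strands for ACGTG and GCGTG, the core letters bound by hypoxia-inducible factors. They were also searched for TGANTCA, a pattern that includes the letters bound by AP-1. A window can hold several of them, and TGANTCA reads the same on both strands. Below are the 250 bases before the start site of Mmp14 (chr14:54431348-54431597, plus strand) and Adam10 (chr9:70678732-70678981, plus strand), which fell, and of Adamts9 (chr6:92943535-92943784, minus strand) and Adamts3 (chr5:89883335-89883584, minus strand), which rose, with any motif in capitals. They were picked after their values were seen.
Mmp14: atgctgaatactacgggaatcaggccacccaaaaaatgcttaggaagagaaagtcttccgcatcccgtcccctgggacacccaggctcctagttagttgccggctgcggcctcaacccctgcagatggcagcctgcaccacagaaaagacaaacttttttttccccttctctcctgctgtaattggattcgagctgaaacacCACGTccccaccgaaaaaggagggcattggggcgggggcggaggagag
Adam10: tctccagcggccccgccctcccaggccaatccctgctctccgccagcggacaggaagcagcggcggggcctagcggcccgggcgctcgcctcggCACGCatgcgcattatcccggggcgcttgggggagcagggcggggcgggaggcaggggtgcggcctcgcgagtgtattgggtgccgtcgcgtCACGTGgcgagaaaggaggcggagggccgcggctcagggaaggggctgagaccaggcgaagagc
Adamts9: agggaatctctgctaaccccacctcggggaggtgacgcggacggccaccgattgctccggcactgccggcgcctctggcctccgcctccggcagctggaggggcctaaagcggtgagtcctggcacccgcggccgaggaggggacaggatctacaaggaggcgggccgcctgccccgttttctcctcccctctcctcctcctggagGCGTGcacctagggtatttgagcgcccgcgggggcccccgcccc
Adamts3: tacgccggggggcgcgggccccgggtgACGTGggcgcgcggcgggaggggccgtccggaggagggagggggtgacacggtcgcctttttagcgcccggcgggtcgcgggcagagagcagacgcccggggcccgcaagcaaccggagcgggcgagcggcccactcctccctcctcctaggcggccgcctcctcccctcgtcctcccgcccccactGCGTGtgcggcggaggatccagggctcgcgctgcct

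Mmp14 holds 1 ACGTG, read on the other strand and starting 48 bases before the start site. Adam10 holds ACGTG on both strands as an overlapping pair and a GCGTG on the other strand. Adamts9 holds 1 GCGTG at 44 bases before the start site, and Adamts3 1 ACGTG and 1 GCGTG. With all families pooled, ACGTG was found in 12 of 58 member windows (20.7%) against 19.6% of all 32851 windows, and GCGTG in 21 of 58 (36.2%) against 32.4%. The families differed for GCGTG, found in 2 of 21 Mmp, 7 of 19 Adam, 7 of 10 Adamts, 2 of 4 Adamtsl and 3 of 4 Timp windows. Of the member windows, ACGTG was in 4 of 17 whose genes fell and in 1 of 3 whose genes rose, beside 23.2% and 29.7% of all windows of genes that fell and rose. GCGTG was in 9 of 17 and 2 of 3, beside 50.2% and 54.1%. These 17 windows are not the 17 members that fell, as a gene can have more than 1 window or none. More than 1 of the 4 ACGTG windows of genes that fell belongs to Adam19, which lay below the filter on mean level. A match describes letters and does not show that a factor was bound.

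TGANTCA was found in 13 of 58 member windows (22.4%), beside 7.81% of all windows, and most of these belong to a single cluster of MMP genes. On chromosome 9, 10 Mmp genes from Mmp13 to Mmp7 lie within 427 kb (7272514 to 7699585), and 8 of the 10 have the motif between 35 and 95 bases before a start site. None of the other 9 Mmp windows has it. The 8 sites are shown with 10 bases on either side, TGANTCA in capitals, in order along the chromosome (chr9:7272469-7272495 for the first and chr9:7692017-7692043 for the last, on GRCm38.p6, Mmp1b read from the minus strand and the others from the plus strand).
Mmp13: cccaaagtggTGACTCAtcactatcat
Mmp12: acatcaacagTGAGTCAgatagaggat
Mmp1b: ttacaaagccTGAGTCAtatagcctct
Mmp3: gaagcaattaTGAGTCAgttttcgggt
Mmp1a: ttgtcaaccaTGAGTCAcatagcctct
Mmp10: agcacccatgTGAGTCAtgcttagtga
Mmp20: atttgagacaTGAATCAtcacttacag
Mmp7: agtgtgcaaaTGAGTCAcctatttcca

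The core reads TGAGTCA in 6 of the 8 sites. That of Mmp13, TGACTCA, reads TGAGTCA on the other strand, and that of Mmp20 is TGAATCA. These sequences stand beside near-silent genes: in the cluster only Mmp13 was tested, 4 of the 10 are listed at 0 in both conditions, and apart from Mmp13 no value exceeded 0.181 FPKM (Mmp10 in hypoxia). The stromelysin gene Mmp3 had 0.0568 and 0.0516 FPKM (here and below, where a pair of levels is given, normoxia comes first). Of the rest of the cluster, Mmp12 is listed at 0 in normoxia and at 0.0291 FPKM in hypoxia, and Mmp1a, Mmp1b, Mmp7 and Mmp20 are listed at 0 in both.

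Secreted MMPs were led by the gelatinase Mmp2. Mmp2 (chromosome 8, 92827291 to 92853420), whose product cleaves denatured collagen and basement membrane collagen, fell from 50.2 to 41.5 FPKM, a 1.21-fold decrease (q = 0.0146 in the authors' deposited table). Its relative Mmp9, the other gelatinase, stayed near 0 at 0.266 and 0.286 FPKM and was not called. Mmp2 was thus far more abundant than Mmp9 in both conditions. Mmp11 (stromelysin-3, which has little activity on the major matrix collagens) fell 1.32-fold, from 24.3 to 18.4 FPKM (q = 0.0275 in the authors' deposited table). Mmp28, an MMP known from epithelia and wound repair, fell 2.06-fold, from 2.50 to 1.21 FPKM. Mmp19, at 1.90 FPKM and then 1.16 FPKM, was not called, with a q of 0.312 in the authors' deposited table. Against these, the collagenase gene Mmp13 (chromosome 9, 7272514 to 7283331) rose 2.11-fold, from 0.395 to 0.833 FPKM. It remained a low-abundance transcript, at a level about that of Adam8 and Adamts6. It was the only collagenase gene tested, since Mmp8 did not exceed 0.0189 FPKM and Mmp1a and Mmp1b are listed at 0.

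The MMPs held at the cell surface contained the largest MMP falls. Mmp14 (chromosome 14, 54431612 to 54445364), the main collagen-cleaving enzyme of the fibroblast surface, fell 2.14-fold, from 93.3 to 43.6 FPKM. It held 42.1% of the summed FPKM of all Mmp genes in normoxia and 32.3% in hypoxia, when Mmp2 held 30.8%. Mmp23, whose precursor is anchored in the membrane, fell 2.38-fold, from 39.1 to 16.4 FPKM, and Mmp16, a relative of Mmp14 with a transmembrane anchor, fell 1.47-fold, from 3.65 to 2.48 FPKM. Mmp25, whose product is attached by a lipid anchor, fell from 0.688 to 0.365 FPKM. Mmp15, another transmembrane MMP, fell from 0.554 to 0.0757 FPKM (7.33-fold), below the filter on mean level. The exception was Mmp17, which also has a lipid anchor and rose 1.75-fold, from 4.63 to 8.09 FPKM. With Mmp24 at or below 0.0572 FPKM and not tested, 5 of 6 tested membrane-bound MMP genes fell and 1 rose, beside 29.0% and 28.9% of all tested measurements. Summed over the family, Mmp FPKM went from 221.7 to 134.9, a ratio of 0.608, while the summed FPKM of the whole table had a ratio of 1.17. Such sums are weighted by the most abundant genes. The median log2 fold change of all tested measurements past the filter was -0.00057.

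Of the inhibitors, Timp2 alone was called. Timp2 (chromosome 11, 118301069 to 118355740) fell 2.08-fold, from 112.8 to 54.3 FPKM. In normoxia it was the most abundant gene of all the families, and in hypoxia it stood below Adam9, Timp1, Timp3 and Adam15. Timp1 had 58.0 and 66.0 FPKM, and its q in the authors' deposited table was 0.319. Timp3, whose product binds to the matrix and also blocks several ADAM and ADAMTS enzymes, stood at 64.8 and 61.0 FPKM (q = 0.428 in the authors' deposited table). Timp4 did not exceed 0.0253 FPKM and was not tested. The summed Timp FPKM went from 235.6 to 181.3, and Mmp over Timp, as a ratio of summed FPKM, from 0.941 to 0.744. Timp2 held 47.9% of the Timp sum in normoxia and 30.0% in hypoxia. It is known as background that the MMP14 protein, with TIMP2 bound to it, activates the MMP2 precursor on the cell surface, and the genes of all 3 proteins fell, Mmp14 and Timp2 by about the same fold and Mmp2 by less.

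**Figure D2:**
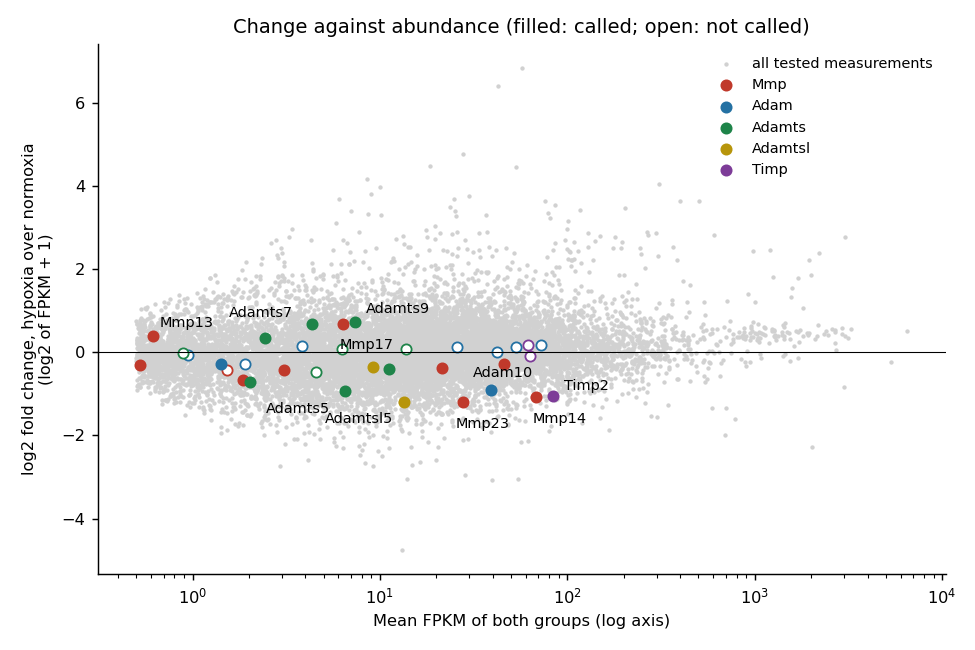
Log2 of the hypoxia over the normoxia level (each FPKM + 1) against the mean FPKM of both groups (log axis), for the 34 members past the filter (coloured by family, filled where called) and all 13118 tested measurements past it (grey). Mmp14 and Timp2, at -1.08 and -1.04, lie beside each other among abundant genes, and the 5 members that rose lie between 0.34 (Adamts3) and 0.72 (Adamts9).

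Among ADAM proteases that shed surface proteins, Adam10 fell and its relatives of similar level were not called. Adam10 (chromosome 9, 70678997 to 70780229), which starts the cleavage of Notch receptors and cuts cadherins, fell 1.90-fold, from 51.1 to 26.9 FPKM. Adam17, the enzyme that releases TNF and several EGF receptor ligands, stood at 24.6 and 26.9 FPKM (q = 0.314 in the authors' deposited table). Adam10 was thus the more abundant of the pair in normoxia, and in hypoxia both had 26.9 FPKM. The most abundant ADAM gene, Adam9, had 68.4 and 77.1 FPKM (q = 0.0992 in the authors' deposited table). Adam15 stood at 50.5 and 55.7 FPKM, and Adam8, mostly known from leukocytes, at 0.986 and 0.905 FPKM, neither called. Adam19 fell 4.39-fold, from 0.789 to 0.180 FPKM, below the filter on mean level. The somatic genes Adam12 and Adam33 stood at or below 0.245 FPKM and were not tested, and Adam28 is listed at 0.

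ADAM proteins without a working catalytic site act in cell adhesion and at nerve cell contacts. Of their genes Adam23 fell 1.38-fold, from 1.64 to 1.19 FPKM (q = 0.0338 in the authors' deposited table). At q below 0.01 Adam23, Mmp2 and Mmp11 are not called. Adam22 stood at 3.58 and 4.11 FPKM and Adam11 at 1.62 FPKM in hypoxia, 1.36-fold below normoxia, neither called. The 21 Adam genes known mainly from testis and epididymis were near silent: 14 are listed at 0 in both conditions, and apart from Adam1a none exceeded 0.212 FPKM. Adam1a shares its measurement with the overlapping genes Mapkapk5 and Gm42878, which had 41.8 and 42.1 FPKM with a q of 0.979 in the authors' deposited table, and its separate level is not known. Over the whole ADAM family 3 of 10 tested measurements fell and none rose, by the authors' Cuffdiff calls or at an unadjusted p below 0.05. Of all tested measurements 29.0% fell and 28.9% rose, so the share of ADAM falls was near that of the table.

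Proteoglycan-cleaving ADAMTS genes split, with Adamts5 and Adamts1 lower and Adamts9 higher. These enzymes cut versican and aggrecan. Adamts5 fell 2.12-fold, from 8.89 to 4.20 FPKM, and Adamts1 fell 1.35-fold, from 12.8 to 9.45 FPKM. The pair lies side by side on chromosome 16 (Adamts1 at 85793827 to 85803113, Adamts5 at 85856173 to 85901828), 53.1 kb apart. Adamts9 (chromosome 6, 92772699 to 92943492) rose 1.77-fold, from 5.30 to 9.40 FPKM, so that it stood below Adamts5 in normoxia and above it in hypoxia. Adamts4 stood at 5.46 and 3.66 FPKM and was not called (q = 0.126 in the authors' deposited table). Adamts8, Adamts15 and Adamts20 did not exceed 0.0281 FPKM.

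The enzymes that remove the amino-terminal propeptide of fibrillar procollagens also moved apart. Adamts14 fell 2.15-fold, from 2.75 to 1.28 FPKM, and Adamts3 rose 1.40-fold, from 2.02 to 2.83 FPKM. Adamts2, the most abundant of these, stood at 6.08 and 6.45 FPKM and was not called (q = 0.702 in the authors' deposited table). The summed FPKM of the 3 genes was 10.9 in normoxia and 10.6 in hypoxia.

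Among the remaining ADAMTS genes Adamts7, whose product cleaves cartilage oligomeric matrix protein, rose 1.79-fold, from 3.12 to 5.57 FPKM. Adamts10, linked to fibrillin microfibrils, was the most abundant ADAMTS gene, at 13.4 and 14.3 FPKM, and was not called. Adamts6 stood at 0.895 and 0.886 FPKM. Adamts16, with 0.294 and 0.00900 FPKM, was not called either (q = 0.0854 in the authors' deposited table). Adamts13, the protease of von Willebrand factor, had 0.00524 and 0.178 FPKM and was not tested. Over the family, 3 of 11 tested ADAMTS genes rose and 3 fell, close to the share called in each direction in the whole table.

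Both ADAMTS-like genes past the filter fell, beside 30.3% of all tested measurements past it. Without the filter 2 of 4 tested ADAMTS-like genes fell, beside 29.0% of all tested measurements. Adamtsl5 fell 2.43-fold, from 19.2 to 7.87 FPKM, and Adamtsl4, whose product binds fibrillin-1 microfibrils, fell 1.32-fold, from 10.4 to 7.88 FPKM. Their levels, which differed in normoxia, were thus nearly equal in hypoxia. Adamtsl3 stood at 0.544 and 0.333 FPKM and Adamtsl1 at 0.301 and 0.490 FPKM, both tested and not called, and Adamtsl2 did not exceed 0.0207 FPKM.

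**Figure D3:**
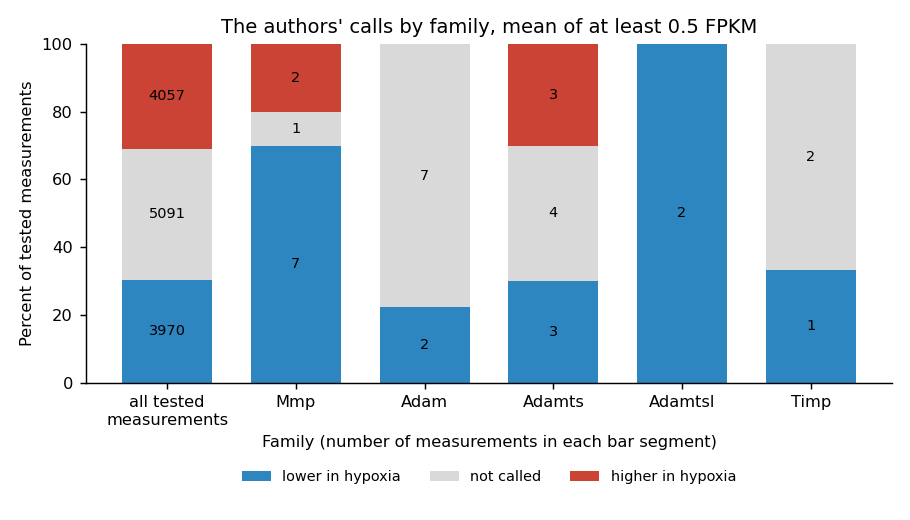
Percent of tested measurements past the 0.5 FPKM filter that the authors called lower (blue) or higher (red) in hypoxia or did not call (grey), for all measurements and by family, with the number of measurements in each segment. The Mmp bar holds 7 lower and 2 higher of 10, the Adam bar 2 lower of 9, and the Adamts bar 3 in each direction of 10.

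Genes that act with these proteases were described from 6 lists of 105 symbols, 6 of which had no row under that symbol, and counts are for members past the 0.5 FPKM filter, to be read against the 30.3% of all tested measurements past it that fell and the 30.9% that rose. Plasminogen activation is a protease cascade that can activate MMP precursors, and its genes are given by their values only. Plau, the urokinase gene, fell 1.92-fold to 3.91 FPKM, its receptor gene Plaur 1.73-fold to 13.2 FPKM and the plasminogen receptor gene Plgrkt 1.40-fold to 35.7 FPKM. Plat, the tissue plasminogen activator gene, had 61.8 and 69.6 FPKM and was not called, and Plg is listed at 0 in both conditions.

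Of 13 inhibitors and activators 7 fell and 2 rose, beside 30.3% and 30.9% of all tested measurements past the filter. Bsg, the gene of the MMP inducer basigin, which also escorts lactate transporters, rose 6.86-fold, from 775.8 to 5322 FPKM. Lrp1, a receptor that takes up proteases and inhibitors, rose from 75.8 to 115.6 FPKM (q = 0.0338 in the authors' deposited table). Among the falls, Furin, a convertase that activates MMP14 and many ADAM precursors, went from 20.6 to 11.0 FPKM. The thrombospondin gene Thbs1 fell 2.11-fold to 16.5 FPKM and Thbs2 2.46-fold to 1.06 FPKM. Reck, the gene of a membrane-anchored MMP inhibitor, fell from 3.64 to 2.97 FPKM (q = 0.0317 in the authors' deposited table, named after its value was seen).

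Partners that escort ADAM10 and ADAM17 through the cell included 4 of 9 genes that rose and 3 that fell, beside 30.9% and 30.3% of all tested measurements past the filter. For ADAM17, the iRhom gene Rhbdf1 rose 1.52-fold, from 14.0 to 21.3 FPKM. The iRhom gene Rhbdf2 rose 1.19-fold, from 11.2 to 13.3 FPKM (q = 0.0212 in the authors' deposited table). Frmd8, which stabilises iRhoms, fell 1.85-fold, from 27.2 to 14.7 FPKM. For ADAM10, the tetraspanin genes Tspan33 and Tspan5 rose 1.70-fold (from 3.59 to 6.09 FPKM) and 1.41-fold (from 26.7 to 37.8 FPKM), and Tspan15 fell 1.56-fold, from 18.5 to 11.8 FPKM. Pacs2, a sorting protein gene, fell from 19.9 to 12.4 FPKM. Rhbdf1, Rhbdf2 and Tspan5 were named after their values were seen.

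Among proteins shed by ADAMs 6 of 21 genes rose, 5 fell and 10 were not called, near the shares of all tested measurements past the filter (30.9% and 30.3%). Nrg1 rose from 0.927 to 2.04 FPKM and the proteoglycan gene Sdc4 from 117.8 to 210.5 FPKM, whereas the EGF receptor ligand gene Btc fell from 6.14 to 2.53 FPKM and the IL-6 receptor gene Il6ra from 2.04 to 0.759 FPKM. Among ADAMTS substrates and partners, 2 of 17 rose, 8 fell and 7 were not called, beside 30.9% higher and 30.3% lower of all tested measurements past the filter. Fmod, the gene of the collagen-binding proteoglycan fibromodulin, fell 5.32-fold, from 3.20 to 0.600 FPKM, and the fibrillin gene Fbn2 fell from 2.57 to 1.41 FPKM, while Bgn (biglycan) rose from 217.3 to 346.8 FPKM and Fn1 (fibronectin) from 447.6 to 649.1 FPKM. Thbs1 and Thbs2 stand on this list as well. On a list of astacins, other cell-surface peptidases and their cofactors, 13 genes were measured and 5 passed the filter, of which 2 fell and none rose, the falls near the 30.3% of all tested measurements past it. These were Pcolce2, a non-catalytic enhancer of procollagen processing (2.38 to 1.12 FPKM), and Mme, the neprilysin gene (1.36 to 0.544 FPKM).

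**Figure D4:**
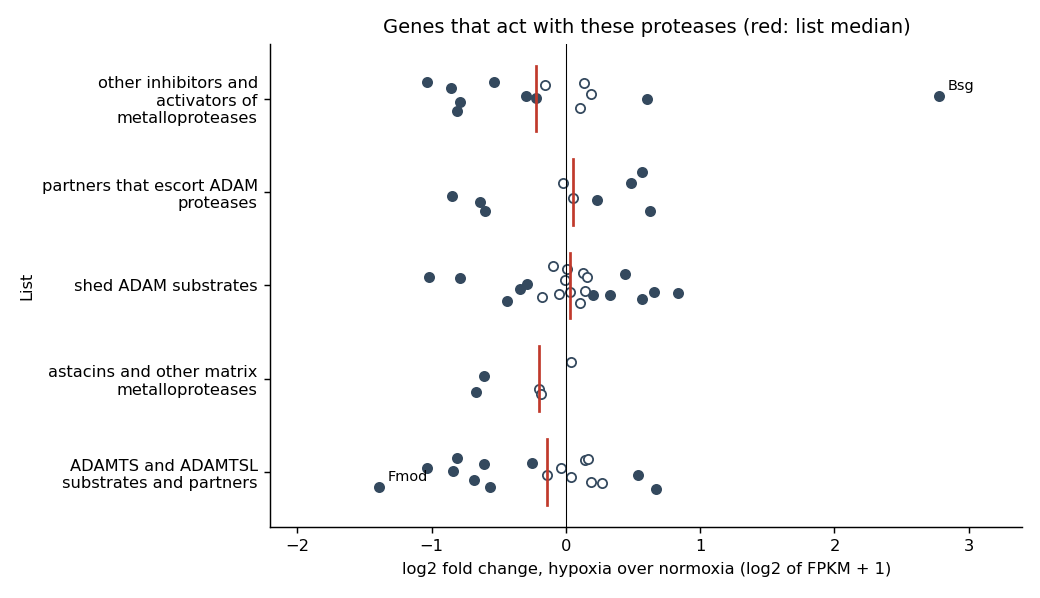
Log2 of the hypoxia over the normoxia level (each FPKM + 1) for the members of 5 lists of related genes with a mean of at least 0.5 FPKM (filled where called, open where not), with each list's median as a red line. Bsg lies far to the right of the rest of its list, whose median is -0.22, and Fmod lies farthest to the left among the substrates and partners of ADAMTS proteins.

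Fibroblast markers fitted the label, and some epithelial markers were present as well. Of 14 fibroblast markers measured 12 were tested, of which 6 fell, 3 rose and 3 were not called. Of all tested measurements 29.0% fell and 28.9% rose. Lum and Fap did not exceed 0.0688 FPKM. Col1a1 had 462.6 and 451.4 FPKM and was not called, Vim rose from 883.1 to 2249 FPKM, and Col3a1 fell from 327.6 to 182.0 FPKM and Col1a2 from 140.1 to 91.7 FPKM. Pdgfrb, Prrx1, Thy1 and Dcn fell too (q = 0.0159 for Thy1 and for Dcn in the authors' deposited table). The part of these changes in the protease results was not tested. Epithelial markers summed to 369.1 FPKM in normoxia and 472.8 FPKM in hypoxia, most of it Krt18, the only one that rose (from 313.1 to 442.9 FPKM). Krt8 fell from 28.3 to 10.1 FPKM, Krt14 from 15.9 to 10.8 FPKM and Cdh1 from 5.93 to 3.76 FPKM. Epcam, at 5.97 and 5.22 FPKM, was not called, and Krt5 and Cldn4 did not exceed 0.0138 FPKM. Of those 7 markers 5 were tested, of which 3 fell and 1 rose, beside 29.0% and 28.9% of all tested measurements. The part of these markers in the protease results was not tested. Endothelial markers summed to at most 0.420 FPKM and leukocyte markers to at most 3.39 FPKM. Of the leukocyte markers, Cd68 rose from 1.32 to 2.27 FPKM and Cd14 fell from 1.91 to 1.01 FPKM. Csf1r, Lyz2 and Ptprc did not exceed 0.0807 FPKM, and Adgre1 and Itgam are listed at 0 in both conditions. The muscle marker Des had 11.0 and 9.46 FPKM and was not called, while Myod1, Myog and Myf5 did not exceed 0.00628 FPKM. Of 4 nerve and glia markers measured, Mbp rose from 9.99 to 13.7 FPKM, and Gfap (0.102 and 0.0201 FPKM), Sox10 and Rbfox3 were near 0 and not tested. In these bulk samples fewer cells of a type and less RNA per cell cannot be told apart.

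Some members share exon bases with a gene on the opposite strand. The library kit keeps strand, but the sources used here do not give the strand setting of the counting, so reads of these pairs cannot be told apart. Mmp11 shares 155 bases with Chchd10 (53.7 and 34.4 FPKM), Adam17 311 bases with Iah1 (33.2 and 27.3 FPKM) and Mmp19 789 bases with Tmem198b (11.9 and 12.2 FPKM). Adamts7, which rose, shares 122 bases with Tbc1d2b, at 8.02 and 4.48 FPKM. Timp3 shares 1733 bases with Syn3, which did not exceed 0.246 FPKM. Mmp24, at or below 0.0572 FPKM itself, shares 637 bases with BC029722, which had 42.0 and 42.4 FPKM.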

How the data were processed

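The authors deposited 1 table in Cuffdiff's layout, with 1 FPKM per gene and condition into which 3 samples were combined, a log2 fold change, a test score (not used), and p-values and q-values, per the file headers. The submitters' processing notes name Cuffdiff 2.2.1, Cufflinks, StringTie 1.3.4d and HISAT2 2.1.0, with GRCm38. The sources used here do not give the scaling between libraries. FPKM are relative levels.

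Where 1 measurement is listed under more than 1 identifier, it entered once (53207 rows gave 51482 measurements, and 87 member rows gave 84). A call is a q below 0.05 in the table the authors deposited, adjusted over all tested measurements. The smallest q, 0.000139, is shared by 5148 measurements and 14 members, so it does not rank them. Folds are ratios of the group FPKM values, and medians use log2(FPKM + 1). As each group has 1 value, replicates could not be tested. Members with a mean of at least 0.5 FPKM are named, those below by counts or where called. From each list, all called genes are named where there are 5 or fewer, otherwise up to 4 with the largest change and up to 2 against the majority. Some genes of these lists and overlaps are not reported here. The members and lists were chosen with earlier results of these data known. Coordinates are 1-based from GENCODE M21 (GRCm38), and the table's locus holds the annotated gene for 81 of the 84. For Adamts5, Mmp25 and Adamts19 the deposited locus lies within the annotated gene and is shorter. A planned description of protein motifs was not made, as no protein sequences were used here. Alternatives were other filters (none, 1 and 5 FPKM), a pseudocount of 0.1, q below 0.01, a 2-fold threshold, single-gene rows and rescaling by the median of ratios. Functions were tested on simulated data. Python 3.11.15, pandas 2.3.3 and NumPy 2.4.6 were used.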

Additional observations from a re-analysis of the deposited data

How the results depend on the processing

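No paired analysis was possible because the table holds 1 value per condition, and for the same reason leaving out replicates was not run. Counts of members that fell or rose kept within 1.5 times under no filter and with single-gene rows. With a mean of at least 5 FPKM, 2 members rose in all, 1 of them an Mmp and 1 an Adamts, and 4 Mmp and 1 Adam fell. At a mean of at least 1 FPKM, 1 Mmp rose. Requiring a 2-fold change left 7 falls in all (3 Mmp, 0 Adam, 2 Adamts, 1 Adamtsl and 1 Timp) and 1 rise (1 Mmp, 0 Adamts). At q below 0.01 Mmp2, Mmp11 and Adam23 lost their calls, which left 1 Adam fall. Lrp1, Reck and Rhbdf2 lost theirs too, and 1 of the listed inhibitors and activators rose. These counts change because fewer genes pass each threshold. Without the filter, the median log2 fold change turned from 0.0079 to -0.026 for Adam and from 0.033 to -0.0070 for Adamts, so neither has a firm sign. The Adam median of 0.0079 is the value of the measurement that Adam1a shares with Mapkapk5 and Gm42878. Rescaling by the median of ratios was a shift of 0.0064 in log2 of the FPKM ratio, and less for log2(FPKM + 1) of low genes. It changed no direction among named members, nor did a pseudocount of 0.1 or, as a setting chosen after seeing the data, none. The depth is unknown, so limits for genes listed at 0 cannot be given.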
